A study of Mus musculus with 15 samples.

Results

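The insulin-like growth factor (IGF) genes examined here are 1 ligand gene, Igf1, 1 receptor gene, Igf1r, and 6 genes of IGF binding proteins, Igfbp2 to Igfbp7. They were chosen by name, as 8 of the 54232 genes in the deposited count table, and all 8 were measured in every library and passed the filter on low counts. The tissue was the dissected secondary palate of wild-type mice (genotype WT) collected on embryonic day 13.5 (E13.5), on days 14.5, 15.5 and 16.5 of gestation, and at birth (P0). Each of the 5 stages had 3 bulk RNA sequencing libraries, and each library held the pooled palates of 3 embryos, so p-values here measure the spread between pools. No library had a treatment or a mutation, and bulk libraries do not separate the mesenchyme, epithelium, vessels and muscle of the organ. A change in level can come from a change in the share of cells that make an RNA or from a change per cell, and these cannot be told apart.

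IGF1 is a secreted growth factor that binds the receptor tyrosine kinase IGF1R on the cell surface, which signals through the insulin receptor substrates to PI3 kinase, AKT and mTOR. Most IGF outside cells is held by binding proteins, which can keep it from the receptor, extend its life or hold it in the matrix, and proteases such as PAPPA and HTRA1 release it by cutting them. IGFBP6 prefers IGF2 to IGF1, and IGFBP7 binds IGFs weakly. In embryos this system is known for its control of growth, including growth of cartilage and bone.

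Of the 8 genes, Igfbp6, Igfbp7 and Igfbp3 rose between E13.5 and P0, and the 250 bases before their transcription starts are shown because their levels moved in the same direction. The sequences are those of RefSeq on GRCm38.p6, read 5′ to 3′ on the strand of the gene, with every CG dinucleotide in capitals. RefSeq starts Igfbp6 further upstream than the gene table does.
Igfbp6: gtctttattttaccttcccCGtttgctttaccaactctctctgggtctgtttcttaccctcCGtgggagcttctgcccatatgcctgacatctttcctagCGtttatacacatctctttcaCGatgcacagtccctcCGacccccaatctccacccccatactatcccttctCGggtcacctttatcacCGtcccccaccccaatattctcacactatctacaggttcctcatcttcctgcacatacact
Igfbp7: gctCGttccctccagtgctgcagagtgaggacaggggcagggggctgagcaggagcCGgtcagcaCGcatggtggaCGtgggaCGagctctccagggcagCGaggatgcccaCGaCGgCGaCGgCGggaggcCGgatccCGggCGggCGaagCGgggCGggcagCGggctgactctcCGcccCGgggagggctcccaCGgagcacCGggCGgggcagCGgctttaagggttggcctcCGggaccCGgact
Igfbp3: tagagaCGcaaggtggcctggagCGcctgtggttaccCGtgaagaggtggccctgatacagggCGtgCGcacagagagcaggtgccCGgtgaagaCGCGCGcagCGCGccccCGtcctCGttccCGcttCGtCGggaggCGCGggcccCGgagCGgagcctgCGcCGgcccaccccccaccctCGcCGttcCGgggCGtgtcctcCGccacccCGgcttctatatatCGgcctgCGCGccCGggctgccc
The window of Igfbp6 is chr15:102143936-102144185 on the plus strand, that of Igfbp7 is chr5:77408046-77408295 on the minus strand, and that of Igfbp3 is chr11:7213924-7214173 on the minus strand. The 3 windows differed in base composition. Igfbp6 had 7 CG dinucleotides and 49.6% G and C, near the medians of 6 and 52.4% over 32851 RefSeq windows of the same length. Igfbp7 had 26 CG dinucleotides and 74.0% G and C, and 90.4% of the windows had fewer CG dinucleotides. Igfbp3 had 32 CG dinucleotides and 73.2% G and C, and 95.4% of the windows had fewer. The window of Igf1r, the 1 gene of the 8 that was lower at P0 than at E13.5, had 42 CG dinucleotides, and 99.1% of windows had fewer.

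Short motifs were counted in all of these windows on both strands, as a description of letters and not of bound sites. TATAAA occurred in the windows of Igfbp6 and Igfbp4, and in 12.4% of all windows. GGGCGG occurred in those of Igfbp7, Igf1r and 1 of the windows of Igfbp2, and in 32.7% of all. TGTGGT occurred in that of Igfbp3, and in 14% of all. CTTTGAT occurred in none of the windows of the 8 genes, and in 3.2% of all. No motif of the 4 was shared by the 3 genes that rose.

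The libraries held 21470759 to 69019565 counts, and depth was lower at the later stages, with at least 63652439 counts in each E13.5 and E14.5 library and at most 41245830 in each P0 library. A total of 3 counts corresponded to 0.0435 to 0.14 CPM (counts scaled to the library total), a limit that covers counting error only. No pair of libraries of a stage agreed within counting error, the chi-square per degree of freedom being 29.5 or more. Levels below are CPM after TMM normalization, which corrects for library composition, and levels of different genes are compared only after division by gene length, as CPM per kilobase. The palate identity of the tissue was checked with 8 mesenchymal genes of the palate (among them Osr2, Pax9 and Shox2), whose summed level was 573 to 932 CPM at E13.5 and 238 to 346 CPM at P0. E14.5 replicate 1 stood apart. Its summed level of 7 choroid plexus genes was 1434 CPM, against 73.5 and 855 CPM in the other E14.5 libraries. The choroid plexus list was 42.5 to 184 CPM at E13.5 and 383 to 803 CPM at P0, so this RNA was not confined to E14.5 replicate 1. In that replicate the summed level of 6 Hox genes of the trunk was 274 CPM, against 52.7 and 7.23 CPM in the other E14.5 libraries. Its palate list was the lowest before E16.5, at 405 CPM, with E15.5 replicate 1 close to it at 420.4 CPM.

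Across the 5 stages, 5 of the 8 genes changed (Igf1, Igf1r, Igfbp3, Igfbp6 and Igfbp7), where 59.1% of the 22151 tested genes did (quasi-likelihood test in edgeR, with p adjusted by Benjamini-Hochberg and a threshold of 0.05, as for every call below). Between E13.5 and P0, Igfbp3, Igfbp6 and Igfbp7 rose and Igf1r fell, 4 of 8 against a background of 56.6% of tested genes (29.8% higher and 26.8% lower). The median log2 fold change of the 8 genes was 0.26, and that of all tested genes was 0.03. Between E14.5 and E15.5, 4 of 8 rose and none fell, against a background of 26.1% (12.7% higher and 13.4% lower), with a median of 0.77 for the 8 genes and 0.03 for all genes. That count was 2 without any 1 of E14.5 replicates 1 and 2 and E15.5 replicates 1 and 2, and 0 without E14.5 replicates 1 and 3 together.

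Fewer of the 8 passed the test at the other steps. Between E13.5 and E14.5 edgeR called none (background 0.00903%), 1 had an unadjusted p under 0.05 (background 16%), and DESeq2 called 1 (background 5.13% of the genes it gave an adjusted p). That gene was Igfbp7 in both cases, with a log2 fold change of 0.85 ± 0.21 (standard error). Between E15.5 and E16.5 edgeR called Igfbp7 alone, as higher (background 1.41%), and DESeq2 called Igfbp6 as well, 2 of 8 (background 9.69%). Between E16.5 and P0 none passed (background 0.352%), none had an unadjusted p under 0.05 (background 11.7%), and DESeq2 called 0 (background 3.35%).

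**Figure D1:**
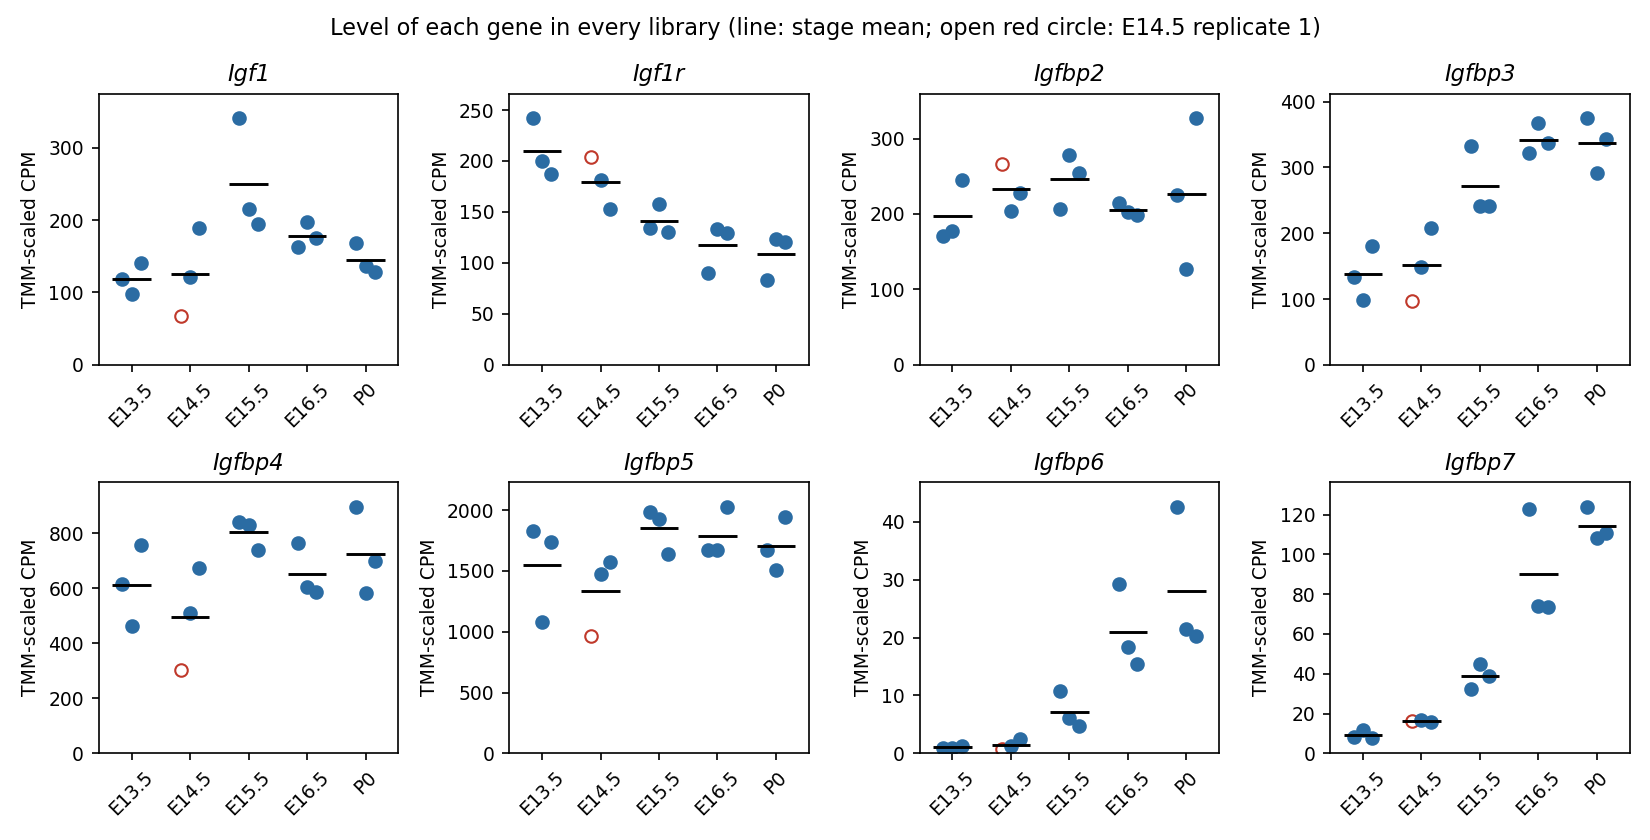
Level of each of the 8 genes in the 15 libraries, in TMM-scaled CPM (vertical axis from 0) by stage; points are libraries, lines are stage means and the open red circle is E14.5 replicate 1. Igfbp6 and Igfbp7 climb from means of 1.01 and 9.03 CPM at E13.5 to 28.1 and 114 CPM at P0, Igf1r falls from 209.7 to 109 CPM, and Igf1 is highest at E15.5.

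Igf1, the ligand gene, rose to E15.5 and was not called different from E13.5 at birth. Its annotated span is chr10:87858265-87937042 on the plus strand. At E13.5 its level was 118, 98.1 and 141 CPM in replicates 1 to 3, and at E14.5 it was 67.4, 122 and 189 CPM. At E15.5 it was 341, 215 and 195 CPM. The lowest E15.5 library, at 195 CPM, was thus above the highest of the 6 earlier libraries, at 189 CPM, and the E15.5 group did not overlap either earlier one. At E16.5 the level was 163, 197 and 176 CPM and at P0 168, 137 and 128 CPM, so that E16.5 overlapped both E15.5 and P0. The rise from E14.5 to E15.5 was 0.99 ± 0.31 on the log2 scale (1.98-fold, adjusted p = 0.0351). It was lost in 7 of 24 alternatives, among them without E14.5 replicate 1 (0.67, adjusted p = 0.122), the library with the lowest Igf1, and without E15.5 replicate 1 (0.69, adjusted p = 0.13), the library with the highest, and also without E13.5 replicate 1, E14.5 replicate 2 or E15.5 replicate 2 (adjusted p = 0.0503, 0.101 and 0.0599). The adjusted p over all 24 ran from 0.00741 to 0.13. The change across the 5 stages (adjusted p = 0.0387) was lost in 8 of 23 alternatives, the highest adjusted p being 0.156 without E15.5 replicate 1 (0.0606 with the replicate number as a block). P0 differed from E13.5 by 0.28, with a 95% interval from -0.39 to 0.95.

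Igf1r, the gene of the receptor that IGF1 binds, fell over the time course. It spans chr7:67952827-68233668 on the plus strand. Its level was 242, 200.0 and 187 CPM at E13.5, 204, 181 and 153 CPM at E14.5 and 134, 158 and 130.4 CPM at E15.5. It was 90.0, 133 and 129.8 CPM at E16.5 and 83.0, 123 and 120.1 CPM at P0. Each stage overlapped the next, while every P0 library lay below every E13.5 library. From E13.5 to P0 Igf1r fell by 0.95 ± 0.19 on the log2 scale (1.93-fold lower at P0, 95% interval -1.36 to -0.53, adjusted p = 0.00123), and this call held in all 24 alternatives. No single step passed the test, the log2 differences from stage to stage being -0.23, -0.35, -0.26 and -0.11. A list of 7 cell cycle genes was lower at P0 as well, with a summed level of 1431 to 1599 CPM at E13.5 and 522 to 879 CPM at P0 and 6 of 7 genes lower, as was the palate mesenchyme list, with 5 of 8 lower. Their part in the fall of Igf1r was not tested.

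Igfbp5, Igfbp4 and Igfbp2, which encode binding proteins of the extracellular space and matrix, were the most abundant of the 6 binding protein genes at E13.5 and did not pass the test across stages. Igfbp5 led at every stage after division by length, with means of 258 ± 67.9 (E13.5), 223 ± 53.9 (E14.5), 308 ± 30.4 (E15.5), 298 ± 34.3 (E16.5) and 284 ± 36.4 (P0) CPM per kilobase (SD, n = 3), and in each stage its lowest library was above the highest of the next gene. Over all 15 libraries its mean of 274 CPM per kilobase ranked 117 among the 22151 tested genes. Igfbp4 ranked 240 and Igfbp2 ranked 315, and the order of these 2 was not settled, since their libraries overlapped at E13.5, E14.5 and P0.

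Igfbp5 ranged from 967 CPM in E14.5 replicate 1 to 2028 CPM in E16.5 replicate 3. P0 differed from E13.5 by 0.14 on the log2 scale (95% interval -0.34 to 0.61). Igfbp4 ranged from 303 CPM, again in E14.5 replicate 1, to 897 CPM in P0 replicate 1, and its P0 difference from E13.5 was 0.25 (-0.33 to 0.82). All E15.5 libraries of both genes lay above all E14.5 libraries. For Igfbp4 that step was 0.70 ± 0.27 with an adjusted p of 0.0713 in the edgeR fit, 0.0368 with DESeq2, 0.0493 among genes averaging 1 CPM or more, 0.0223 without E14.5 replicate 3 and 0.254 without E14.5 replicate 1. For Igfbp5 it was 0.47 ± 0.22 (adjusted p = 0.132).

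Igfbp2 showed no ordered course. Its stage means lay between 198 and 246 CPM, and P0 differed from E13.5 by 0.20 (95% interval -0.38 to 0.77). The P0 libraries, at 225, 127 and 327 CPM, spanned the whole range of the time course, with the lowest and the highest of the 15 values. At E14.5 Igfbp2 was highest in replicate 1, at 266 CPM, the library in which Igf1, Igfbp3, Igfbp4 and Igfbp5 were lowest of their stage and the choroid plexus list highest. The highest choroid plexus list and the highest Igfbp2 also fell together at E13.5 (replicate 3), E15.5 (replicate 2) and E16.5 (replicate 1). At P0 they did not. There the choroid plexus list was 443, 803 and 383 CPM in replicates 1 to 3, so the highest list went with the lowest Igfbp2. The part of choroid plexus tissue in the level of Igfbp2 was not tested. Igfbp2 and Igfbp5 are neighbours on chromosome 1, with 5457 bases between them and facing each other (Igfbp2 at 72824503 to 72852474 on the plus strand, Igfbp5 at 72857932 to 72874884 on the minus strand). Their levels did not move together, with Pearson's r of 0.12 over the 15 libraries, given as a description.

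Igfbp3, whose product is the main carrier of IGFs in blood, rose at E15.5 and was above its early range in every later library. It spans chr11:7206086-7213923 on the minus strand, 3539 bases from Igfbp1. Its level was 133, 98.6 and 181 CPM at E13.5, 97.7, 149 and 208 CPM at E14.5 and 332, 241 and 241 CPM at E15.5. It was 322, 368 and 337 CPM at E16.5 and 375, 291 and 344 CPM at P0. The lowest of the 9 libraries from E15.5 on had 241 CPM and the highest of the 6 earlier ones 208 CPM. P0 exceeded E13.5 by 1.29 ± 0.27 on the log2 scale (2.45-fold, adjusted p = 0.00137), a call that held in all 24 alternatives. The step from E14.5 to E15.5 was 0.84 ± 0.26 (1.79-fold, adjusted p = 0.0344), and it was lost in 7 of 24, among them without E14.5 replicate 1 (0.60, adjusted p = 0.142), without E14.5 replicate 2 (0.0973) and without any single E15.5 replicate (0.11, 0.0612 and 0.0616 for replicates 1 to 3).

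Igfbp7, which encodes a secreted protein also found around vessels, rose at 2 of the 4 steps between neighbouring stages. It spans chr5:77349240-77408041 on the minus strand, and its exons overlap those of Polr2b on the opposite strand, from which the strand-specific counting separates it. Its level was 7.98, 11.6 and 7.49 CPM at E13.5, 16.4, 16.9 and 15.6 CPM at E14.5 and 32.5, 44.8 and 39.1 CPM at E15.5. It was 123, 74.2 and 73.4 CPM at E16.5 and 124, 108 and 111 CPM at P0. Each embryonic stage lay wholly above the one before, and only E16.5 and P0 overlapped. P0 exceeded E13.5 by 3.66 ± 0.23 (12.6-fold, adjusted p = 1.5e-06). The steps were 1.25 ± 0.21 from E14.5 to E15.5 (2.38-fold, adjusted p = 0.0024) and 1.21 ± 0.21 from E15.5 to E16.5 (2.32-fold, adjusted p = 0.0284). The later step was lost in 6 of 24 alternatives, without any single E15.5 replicate (adjusted p = 0.0702, 0.133 and 0.118) and without E16.5 replicate 1 (0.0956) among them.

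Igfbp6 had the largest fold of the 8 genes and the lowest level at the start. It spans chr15:102144362-102149511 on the plus strand. Its level was 0.917, 0.930 and 1.19 CPM at E13.5 (64 to 80 counts) and 0.779, 1.18 and 2.40 CPM at E14.5. It was 10.7, 6.11 and 4.74 CPM at E15.5, 29.3, 18.4 and 15.4 CPM at E16.5 and 42.6, 21.5 and 20.2 CPM at P0. E15.5 and E16.5 each lay wholly above the stage before. P0 exceeded E13.5 by 4.80 ± 0.51 on the log2 scale (27.8-fold, 95% interval 3.69 to 5.90, adjusted p = 1.59e-05), in all 24 alternatives as for Igfbp7. The step from E14.5 to E15.5 was 2.30 ± 0.46 (4.93-fold, adjusted p = 0.00487), and that from E15.5 to E16.5 was 1.55 ± 0.44 (adjusted p = 0.088; 0.0113 with DESeq2). With E14.5 replicates 1 and 3 left out together, the E15.5 steps of Igfbp6 and Igfbp7 were 2.64 and 1.24 and lost their calls (adjusted p = 0.055 and 0.0817). That fit has 1 E14.5 library, which is assumed to vary like the libraries of the other stages.

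**Figure D2:**
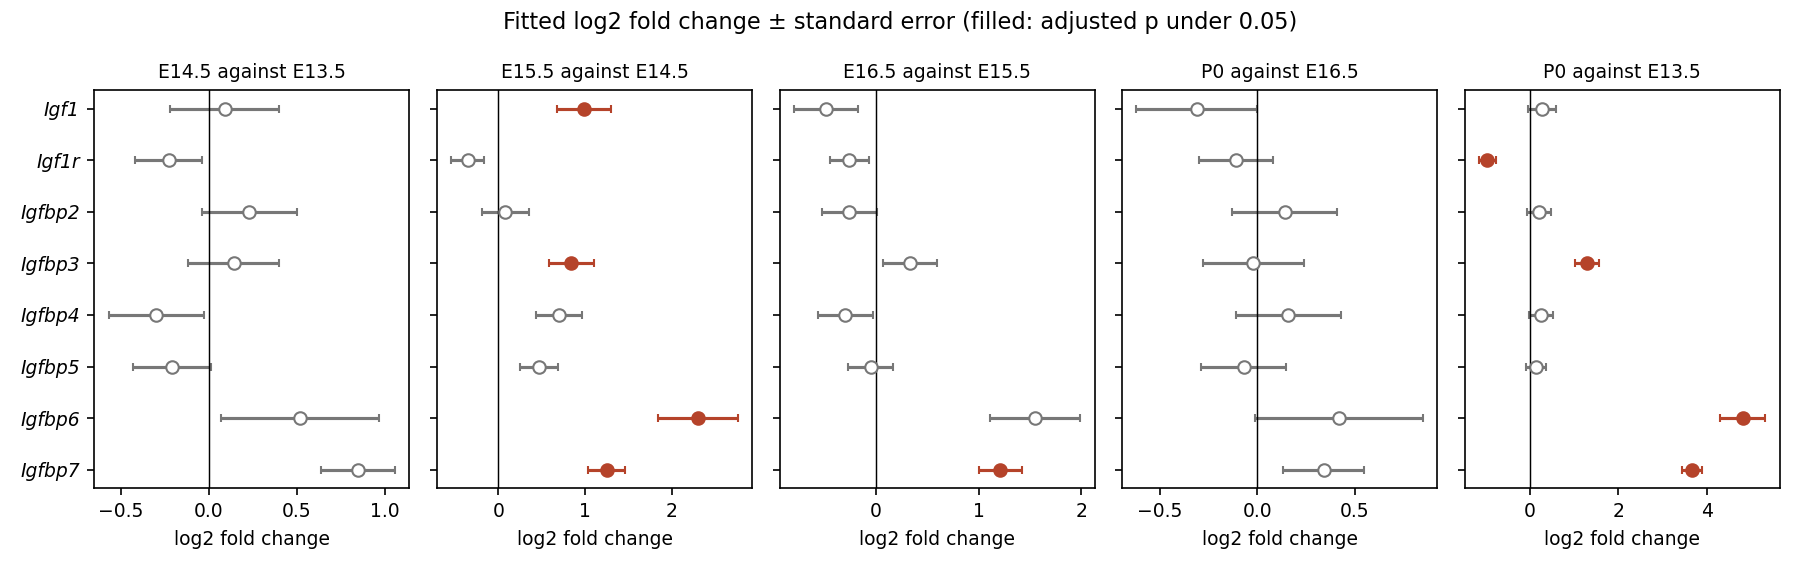
Fitted log2 fold change of each gene in 5 comparisons of stages (horizontal axes differ between panels), with bars of 1 standard error; filled red points have an adjusted p under 0.05. Igf1, Igfbp3, Igfbp6 and Igfbp7 are filled at E15.5 against E14.5, and Igf1r, Igfbp3, Igfbp6 and Igfbp7 at P0 against E13.5, where Igf1r alone is negative.

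Markers of other cell types rose over the same stages and are given beside Igfbp6 and Igfbp7. The summed level of 7 skeletal muscle genes (among them Acta1, Ckm and Myog) was 208 to 386 CPM at E13.5, 1745 to 4668 CPM at E15.5 and 5710.0 to 31318 CPM at P0, and 6 of 7 were higher at P0. In each embryonic stage the library with the highest muscle list also had the highest Igfbp6 (replicate 3 at E13.5 and E14.5, replicate 1 at E15.5 and E16.5). At P0 it did not. The muscle list was 26393, 31318 and 5710.0 CPM in replicates 1 to 3, where Igfbp6 was 42.6, 21.5 and 20.2 CPM, so replicates 2 and 3 were close in Igfbp6 and far apart in the muscle list. Igfbp7 was 124, 108 and 111 CPM in the same libraries.

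The osteoblast list of 7 genes went from 84.9 to 173 CPM at E13.5 to 1267 to 2434 CPM at P0, with 6 higher, and the epithelial list of 6 from 157 to 389.6 CPM to 985 to 5047 CPM, with 5 higher. The macrophage list of 6 went from 55.9 to 84.2 CPM to 220.0 to 328 CPM, with all 6 higher. The summed endothelial list moved less, from 281 to 370.0 CPM to 399 to 624 CPM (3 of 6 higher). The summed pericyte list went from 281 to 351 CPM to 359 to 415 CPM (5 of 6 higher and 1 lower). Gene by gene, the median log2 fold change from E13.5 to P0 was 1.60 for the pericyte list. It was 1.37 for the macrophage list and 0.44 for the endothelial list. E16.5 replicate 1, which had the highest Igfbp7 of its stage, also had the highest endothelial list of all libraries, at 676 CPM. The highest endothelial lists at E15.5 (437 CPM, replicate 1) and P0 (624 CPM, replicate 2) were in the libraries with the lowest Igfbp7 of those stages. In the 3 E13.5 libraries the pericyte gene Higd1b had at most 3 counts. The part of these cell types in the rise of Igfbp6 and Igfbp7 was not tested.

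**Figure D3:**
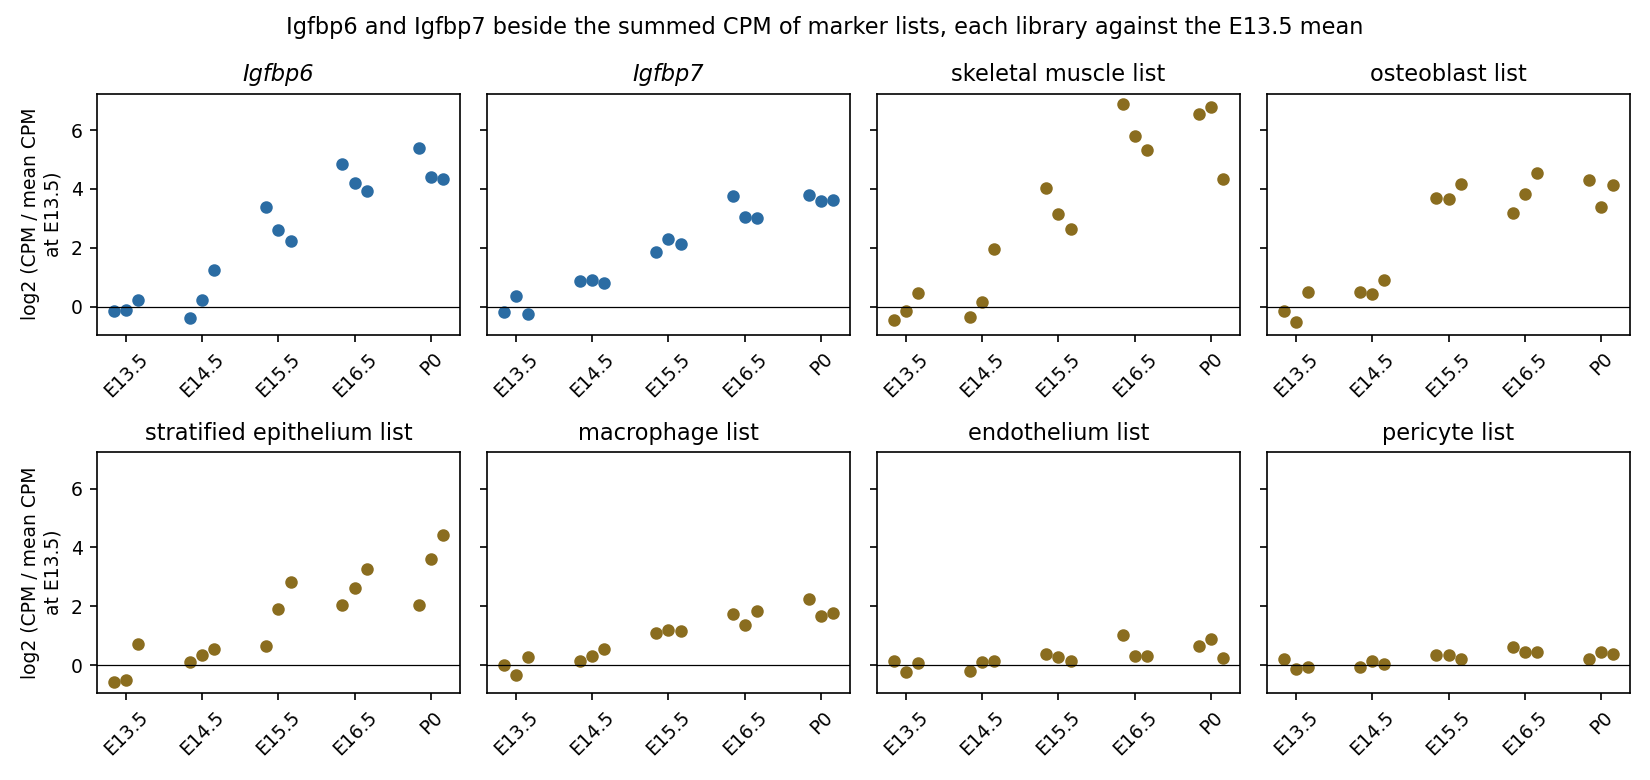
Igfbp6, Igfbp7 and the summed CPM of 6 marker lists in each library, as log2 of the ratio to the E13.5 mean (vertical axis) by stage; points are libraries, in replicate order. The muscle list rises furthest and is spread widely at P0, where Igfbp7 is not. The sums of the endothelial and pericyte lists move least, though 5 of 6 pericyte genes were higher at P0 and 1 lower.

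These changes altered the make-up of the binding protein RNA. The summed level of Igfbp2 to Igfbp7 was 556 ± 120.2 CPM per kilobase (SD, n = 3) at E13.5 and 798 ± 125 at P0, with ranges of 424 to 658 and 654 to 877 that overlapped by a little. Igfbp5 made up 46.1% ± 5.14 of it at E13.5 and 35.8% ± 3.21 at P0, and Igfbp4 made up 24.9% ± 1.18 and 20.6% ± 2.78. Igfbp3 went from 7.83% ± 0.846 to 13.5% ± 0.897, Igfbp7 from 1.44% ± 0.718 to 12% ± 1.65 and Igfbp6 from 0.167% ± 0.0285 to 3.16% ± 1.19. For each of these 5 shares the 3 libraries of one stage lay outside the range of the other, and an exact two-sided permutation test gave p = 0.1, the smallest that 3 libraries against 3 can give. For Igfbp4 the gap was narrow, the lowest E13.5 share being 23.7% and the highest P0 share 23.5%. The share of Igfbp2, 19.5% ± 3.56 and 15% ± 4.86, overlapped (exact permutation p = 0.3). A share can fall without a fall in level, as those of Igfbp5 and Igfbp4 did here.

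**Figure D4:**
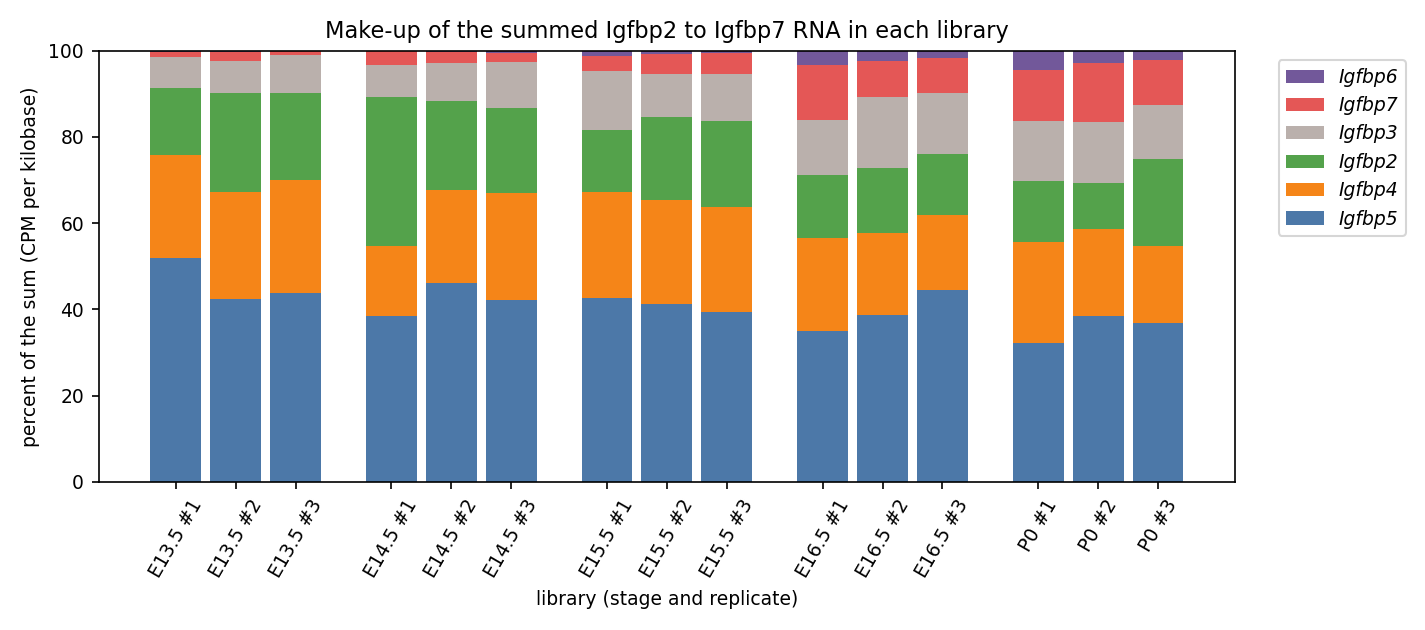
Make-up of the summed Igfbp2 to Igfbp7 RNA in each of the 15 libraries, as percent of the sum of CPM per kilobase (vertical axis). The share of Igfbp7 grows from 1.44% at E13.5 to 12% at P0, and E14.5 replicate 1 has the highest share of Igfbp2, at 34.4%.

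Within the group of 6, the order of mean levels per length was the same at 4 of the 5 stages, and at E14.5 Igfbp2 and Igfbp4, whose libraries overlapped, changed places. At E13.5 the order was Igfbp5, Igfbp4, Igfbp2, Igfbp3, Igfbp7 and Igfbp6. At P0 Igfbp4, Igfbp2, Igfbp3 and Igfbp7, at 164 ± 36.1, 123 ± 53.9, 108 ± 13.6 and 94.4 ± 6.87 CPM per kilobase, each overlapped the next in their libraries. Igf1 and Igf1r were close at E13.5 (12 ± 2.14 and 12.5 ± 1.73 CPM per kilobase, overlapping), and at P0 Igf1 was at 14.6 ± 2.14 and Igf1r at 6.47 ± 1.33 CPM per kilobase, with no overlap. Igfbp6 was below the other 7 genes at E13.5 and E14.5 and was above both Igf1 and Igf1r at P0, at 25.3 ± 11.3 CPM per kilobase.

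Pairs of the 8 genes were compared over the 15 libraries with Pearson's r of log2 CPM, as a description, since the points share their library and its mix of cells. Igfbp6 and Igfbp7 had r = 0.95, but r = 0.10 after each stage mean was removed, so that they shared a course over stages and not the deviations of single libraries. Igf1 and Igfbp3 showed the reverse order, with r = 0.72 and, within stages, 0.92. Igf1 and Igfbp4 had 0.80 by either measure. Igf1r ran against Igfbp6 (r = -0.93, and -0.76 within stages) and Igfbp7 (r = -0.89, and -0.42 within stages).

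The genes most like each of the 8 were taken as the 2 protein-coding genes with the highest r among 12657. For Igf1 they were Fkbp14 (r = 0.96), which encodes a prolyl isomerase of the endoplasmic reticulum, and Ogn (0.95), which encodes the matrix proteoglycan osteoglycin. For Igfbp4 they were P3h3 and Mrc2 (0.95 each), which act in collagen modification and collagen uptake, and for Igfbp5 Slc12a4 (0.93), an ion transporter gene, and Col11a1 (0.92), a fibrillar collagen gene. For Igfbp3 they were Fgf7, a growth factor gene, and Vstm4 (0.98 each).

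For Igfbp6 the most alike were Col5a3, a collagen gene, and Csrp3, a gene of striated muscle (0.99 each). For Igfbp7 they were Pglyrp1, a gene of innate immunity (0.99), and Ly6c1 (0.98), which endothelial cells and monocytes express, the latter giving way to another gene with a smaller prior count. Those of Igf1r were Ercc6, a DNA repair gene, and Crebbp, a histone acetyltransferase gene (0.98 each). Igfbp2 had the weakest matches, Tyro3 (0.80), a receptor tyrosine kinase gene, and Ebf4 (0.77).

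Other genes of the pathway were followed as a list of 39. Of these, 22 changed across the 5 stages, a share close to the background of 59.1%. Between E13.5 and P0, 11 rose and 7 fell, against backgrounds of 29.8% higher and 26.8% lower (12 and 4 with upper-quartile scaling), with a median log2 fold change of -0.09 against 0.03 for all tested genes. Between E14.5 and E15.5, 4 rose and 7 fell, against 12.7% and 13.4% of all genes (6 and 4 with upper-quartile scaling, which moved the median of all genes from 0.03 to 0.16, and to 0.10 between E13.5 and P0), but 2 in all were called without E14.5 replicate 1, 12 without replicate 3 and 0 without both. None of the 39 was called in the other 3 comparisons by edgeR, where 5 (E13.5 to E14.5), 5 (E15.5 to E16.5) and 3 (E16.5 to P0) had an unadjusted p under 0.05, against 16%, 21.8% and 11.7% of all genes. DESeq2 called 1, 3 and 2 in these comparisons, against 5.13%, 9.69% and 3.35%.

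Among the proteases that cut binding proteins and the inhibitors of those proteases, 3 of 6 rose and 2 fell between E13.5 and P0 (3 and 0 with upper-quartile scaling). Over all tested genes 29.8% were higher and 26.8% lower. Htra1, which encodes a serine protease that cuts several binding proteins, went from 9.97 ± 5.08 CPM at E13.5 to 18.7 ± 7.30 at E14.5, 65.1 ± 15.5 at E15.5 and 104 ± 44.1 at P0. Its log2 rise to P0 was 3.39 ± 0.42 (10.4-fold, adjusted p = 4.37e-05), and its E15.5 step was 1.80 ± 0.40 (adjusted p = 0.0076). Over 24 alternatives the E15.5 step of Htra1 ran from 1.57 to 2.14. Its call was lost only with E14.5 replicates 1 and 3 left out together. Adam12, a metalloprotease gene whose product cuts IGFBP3 and IGFBP5, went from 25.0 ± 7.60 to 67.2 ± 21.4 CPM (log2 1.43 ± 0.30, adjusted p = 0.00162). The other gene of the group that rose was the inhibitor gene Stc2 (log2 1.29, adjusted p = 0.00119). Those that fell were the protease gene Pappa (log2 -0.89, adjusted p = 0.0432) and the inhibitor gene Stc1 (log2 -0.51, adjusted p = 0.0443).

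Of the other ligand and binding protein genes, Igfbpl1, which encodes a protein related to the binding proteins, had 117 ± 86.2 CPM at E14.5 and 5.70 ± 1.00 CPM at E15.5, and it fell by 4.36 ± 1.18 on the log2 scale (adjusted p = 0.0184, and up to 0.143 in 4 alternatives that lost the call, 1 of them without E14.5 replicate 1). The summed level of 6 brain neuron genes was 566 to 1139 CPM at E14.5 and 283 to 595 CPM at E15.5, and its part in the level of Igfbpl1 was not tested. Igf2, the second ligand gene, shares 62.8% of its exon bases with another gene model on its strand, and reads there were counted for neither, so its level was not read. Igfbp1 had at most 38 counts in a library.

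In the growth hormone arm, which controls Igf1 in liver, 2 of 5 genes rose from E13.5 to P0 and none fell. With DESeq2 or with upper-quartile scaling 3 rose. Over all tested genes 29.8% were higher and 26.8% lower. Stat5a, a transcription factor gene of that arm, went from 5.34 ± 0.656 to between 13.2 and 24 CPM (log2 1.91 ± 0.30, adjusted p = 0.000226). Socs2, whose product damps growth hormone signals, went from 35.4 ± 0.798 to 70.0 ± 4.12 CPM (log2 0.98 ± 0.11, adjusted p = 1.95e-05). Among the other receptors and their adaptors 1 of 9 rose and 1 fell, against the same shares over all genes. Grb14, an adaptor gene whose product restrains insulin receptor signals, was the one that rose, from 10.3 ± 1.41 to 26.9 ± 10.2 CPM (log2 1.39 ± 0.30, adjusted p = 0.00172). Irs2, a docking protein gene, changed across stages (adjusted p = 0.0162) with its lowest mean at E15.5, 43.4 ± 6.04 CPM. Its P0 libraries ranged from 61.2 to 165 CPM and its E13.5 libraries from 60.1 to 71.9 CPM, and P0 was not called different from E13.5 (log2 0.59, adjusted p = 0.106; 0.02 without P0 replicate 2).

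The group of PI3 kinase, AKT, mTOR and FOXO genes, downstream of the receptor, went both ways between E13.5 and P0, with 4 of 15 higher and 4 lower. These counts compare with 29.8% higher and 26.8% lower over all tested genes. Tsc1, a gene of the complex that restrains mTOR, fell from 91.1 ± 9.31 to 48.7 ± 6.56 CPM (log2 -0.90 ± 0.16, adjusted p = 0.000485). Between E14.5 and E15.5, 5 of the 15 fell and none rose, or 3 fell and 1 rose with upper-quartile scaling, against 13.4% lower and 12.7% higher over all genes. None of the 15 was called without E14.5 replicates 1 and 3. These are RNA levels and carry no measure of signalling.

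**Figure D5:**
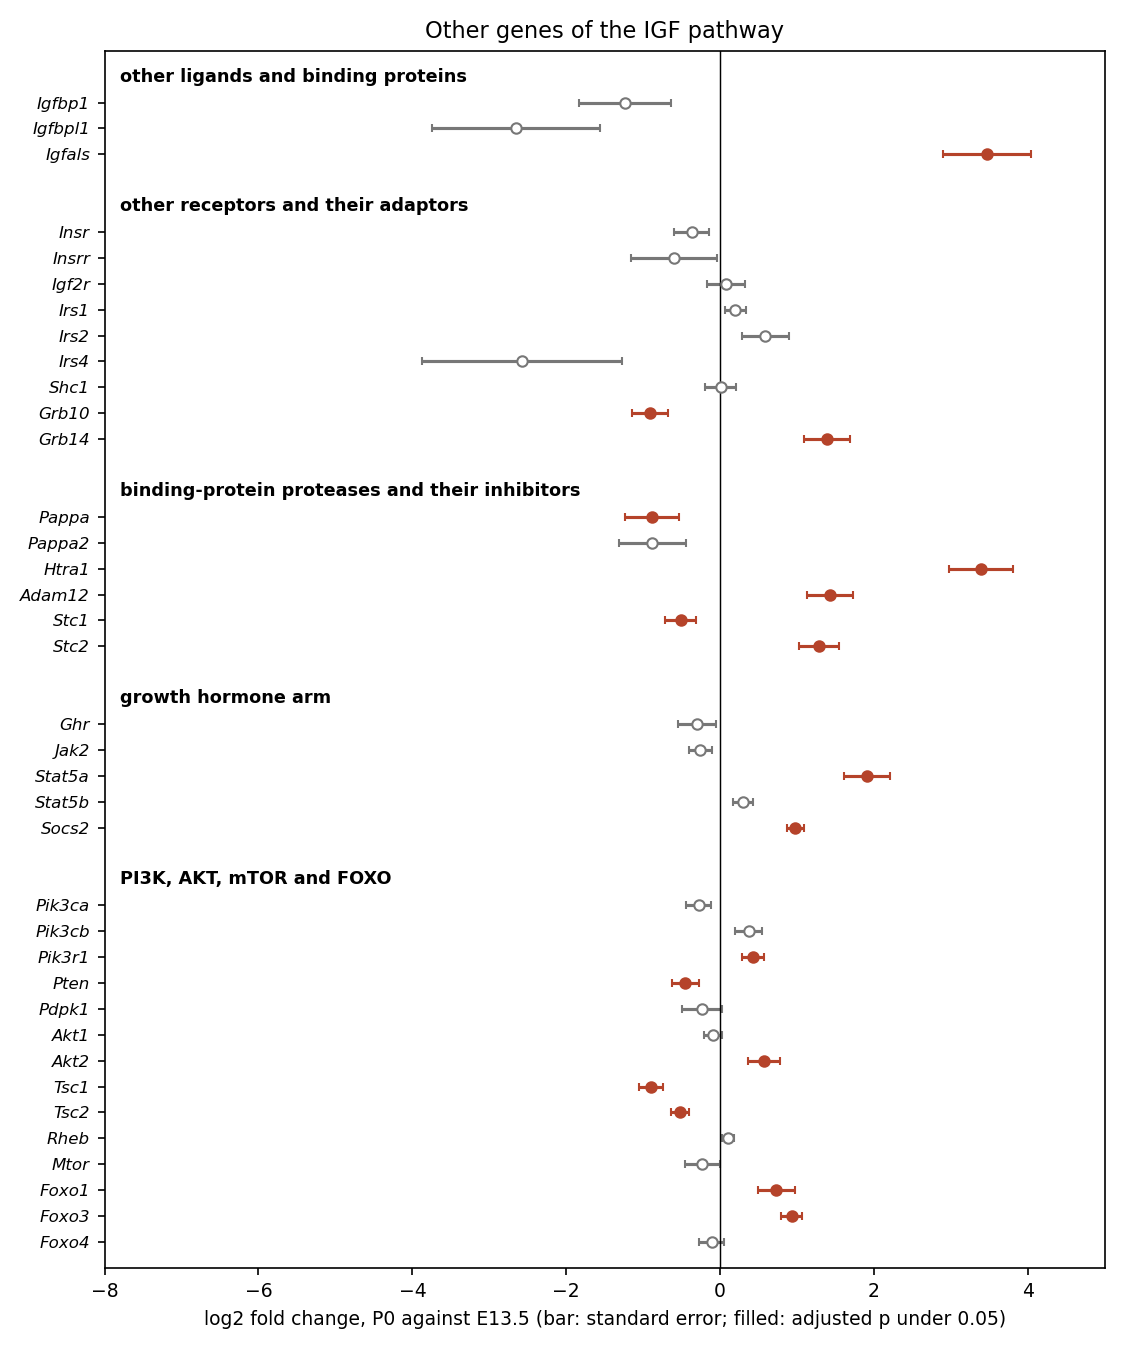
Fitted log2 fold change from E13.5 to P0 of 37 of the other IGF pathway genes in 5 groups, with bars of 1 standard error; filled points have an adjusted p under 0.05. Filled points lie on both sides of 0, with Igfals (3.47) and Htra1 (3.39) furthest to the right and Grb10 (-0.91) the lowest of the filled points. The level of Igfals was low, at a mean of 0.0809 CPM at E13.5 (at most 10 counts in a library) and 0.914 CPM at P0. Igfbpl1 (-2.65) lies furthest left and is open. Igf2 is not drawn, since its level was not read.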

How the data were processed

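Bulk RNA was sequenced from 15 libraries of mouse secondary palate, 3 for each of 5 stages taken from the labels. Per the submitters' processing notes, reads were trimmed with cutadapt 3.4 and the tools included HISAT2 2.2.1 and SAMtools 1.12 with build mm10. The deposited values are raw counts per gene, made by the authors, per the file headers, with featureCounts 2.0.1 on an annotation named GENCODE M18, by read pair and reverse strand, with no option for reads that map to several places or overlap more than 1 gene. Symbols came from GENCODE M21 by identifier, for 54079 of 54232 genes, of which 97.7% had the same position, on GRCm38. Exon overlaps were computed from the exon positions in the deposited count table. Promoter windows came from RefSeq and matched all 8 genes.

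Genes were filtered with filterByExpr (minimum count 10, 22151 kept), normalized by TMM (trimmed means of log ratios) and fitted jointly for the 15 libraries, each stage having its own coefficient, in edgeR 4.0.16 under R 4.3.3 (common biological coefficient of variation 0.332). Quasi-likelihood F tests were adjusted by Benjamini-Hochberg over all tested genes, with a threshold of 0.05. The standard error of a fold change was derived from its F statistic. Correlations used log2 CPM with a prior count of 2, and genes with a mean of at least 10 CPM in some stage. Shares were tested by exact permutation in scipy 1.17.1. All 8 genes were named, and in each pathway group the 2 genes with the largest range of stage means among those past 0.05 across stages with a mean of at least 10 CPM in some stage. The other protease and inhibitor genes called between E13.5 and P0 were named as well. Depth ran from 21470759 to 69019565 counts. The alternatives were DESeq2 1.42.0, edgeR with upper-quartile scaling or with DESeq2's size factors, no filter, a mean of at least 1 CPM, a prior count of 0.5, the replicate number as a block, only the 6 libraries of a comparison, E14.5 replicates 1 and 3 left out together, each library left out in turn, and shares without division by length. The fit was also run on simulated counts, with changes placed in few genes and at E15.5 alone. That setting differs from the data, and no result here rests on it. The genes and lists were chosen with earlier results of these data known. Protein sequences were not used here, and 1 gene that the naming rule chose is counted but not reported here.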

Additional observations from a re-analysis of the deposited data

How the results depend on the processing

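Over 48 values of the 8 genes and 1144 alternative values, 1088 kept direction and side of the threshold, 30 lost the call, 5 gained it and 21 changed sign, all 21 among differences that were not called. The counts of the 8 genes across the 5 stages and between E13.5 and P0 stayed within 1.5 times under every alternative. Between E14.5 and E15.5 the count of 4 was 0 with E14.5 replicates 1 and 3 left out, where 5 had an unadjusted p under 0.05 and 589 genes in all were called, 2 with only the 6 libraries of the comparison, and 2 to 5 when single libraries were left out, the 2 arising when replicate 1 or 2 of either stage was dropped. Between E15.5 and E16.5 the count of 1 was 2 with DESeq2, 0 with E14.5 replicates 1 and 3 left out, 0 with only the 6 libraries, and 0 to 1 when single libraries were left out. Between E13.5 and E14.5 DESeq2 gave 1 of the 8. The cause of these shifts was not tested.

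Of the 39 pathway genes, 13 changed across stages with E14.5 replicates 1 and 3 left out. Between E14.5 and E15.5 the count of 11 was 6 with no filter, 0 with those replicates left out (6 at an unadjusted p under 0.05), and 2 to 12 with single libraries left out, namely 2 and 6 when E14.5 replicate 1 or 2 was dropped and 3 and 4 when E15.5 replicate 2 or 3 was dropped. DESeq2 gave 1 at the step to E14.5, 3 at that to E16.5 and 2 at that to P0, and single libraries left out gave 0 to 1 at the first and 0 to 2 at the second of these steps.

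Signs turned only in differences that were not called, up to 0.52 on the log2 scale (Igfbp6 between E13.5 and E14.5). From E16.5 to P0, Igfbp3 (-0.02) was 0.02 with upper-quartile normalization, 0.00 with a mean of 1 CPM and 0.01 with only the 6 libraries. With single libraries left out, that comparison ran from -0.27 to 0.05 for Igf1r, -0.23 to 0.41 for Igfbp2, -0.11 to 0.05 for Igfbp3, -0.02 to 0.28 for Igfbp4, -0.18 to 0.02 for Igfbp5 and -0.01 to 0.73 for Igfbp6. From E13.5 to E14.5 the ranges were -0.32 to 0.39 for Igf1, -0.15 to 0.39 for Igfbp3 and -0.04 to 0.83 for Igfbp6, each lowest without E14.5 replicate 3. Igfbp2 ran from -0.02 to 0.18 between E14.5 and E15.5 and from -0.15 to 0.50 between E13.5 and P0, Igfbp5 from -0.15 to 0.01 between E15.5 and E16.5 and from -0.07 to 0.27 between E13.5 and P0.

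Without division by length, the shares at E13.5 and P0 were 8.08% and 7.03% for Igfbp2, 5.46% and 10.8% for Igfbp3, 61.5% and 54.5% for Igfbp5, 0.0415% and 0.895% for Igfbp6, and 0.393% and 3.68% for Igfbp7, with the same directions as per length. The share of Igfbp4 without this division is not given here, so its fall in share rests on the values per length.

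The replicate numbers did not pair the libraries. Deviations from the stage means correlated above 0.1 in 10 of 30 same-numbered pairs (-0.45 to 0.61), and 22 of 60 comparisons found the best match in the own number. With the number as a replicate block, 5860 genes in all were called between E14.5 and E15.5 and 135 between E13.5 and E14.5 (2 without the block), the counts of the 8 genes were 4 between E14.5 and E15.5 and 4 between E13.5 and P0, and Igf1 lost its call across the 5 stages (adjusted p = 0.0606).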
